A study of Drosophila melanogaster with 4 samples.

Results

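Tret1-1 encodes a facilitated transporter of trehalose, and its RNA was compared between S2 cells incubated in Krebs Ringer bicarbonate (KRB) and in Schneider's medium, each for 4 h. It was taken as the row with this gene symbol, which is 1 of the 2049 genes that the authors deposited, and it was chosen with its counts in this same contrast known, so its values are given as a description without a test. S2 cells are a Drosophila line of embryonic origin with features of hemocytes, the blood cells of the fly. Both groups were the same unmodified line, and they differed in the medium alone. Schneider's medium with serum is the growth medium and served as the fed control, and KRB is a buffered salt solution that contains glucose but neither amino acids nor serum and is richer in sodium. The comparison therefore asks how the transcriptome changes upon amino acid starvation in KRB. Serum, salt and any other component that differs between the media change at the same time. The sugar content of Schneider's medium, trehalose included, is not given in the sources used here. Each medium gave 2 libraries from biological replicates, made from total RNA after ribosomal RNA had been removed.

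Trehalose, a disaccharide of glucose, is the main sugar of insect blood. It is made largely in the fat body, enters other cells through transporters such as Tret1-1 without the expense of energy, and is split inside or outside the cell by trehalase into glucose, which hexokinase then commits to glycolysis. Tret1-1 belongs to the major facilitator superfamily, like the mammalian GLUT proteins. In the fly it is known from the glia that surround the brain, where starvation raises it and TGF-β signalling takes part in that response, and from hemocytes.

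The gene (FBgn0050035) lies on the forward strand of chromosome 2R of BDGP6, the assembly also called Dm6, from 11665768 to 11674782. Of its 2 annotated transcripts, the long one (FBtr0088073) has 8 exons and encodes 857 amino acids, and the short one (FBtr0088074) has 5 exons and encodes 489. Their start sites are 6288 nt apart, and they share 4 coding segments with 1383 nt of coding sequence as well as a 3′ UTR of 351 nt. Since the deposited table has 1 count per gene symbol, the counts do not tell these transcripts apart. The whole gene lies in an intron of Roc2, a RING finger gene on the reverse strand, and no exon of Roc2 overlaps it. The library kit kept the strand of the RNA, but whether the counting used it is not stated, so unspliced Roc2 reads on Tret1-1 exons cannot be told apart from Tret1-1 reads. Tret1-2, the related gene 1153 bp downstream, lies in the same intron and is not analysed here. The identity of its sequence to Tret1-1 was not computed, and how reads matching both genes were counted is not stated.

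**Figure D1:**
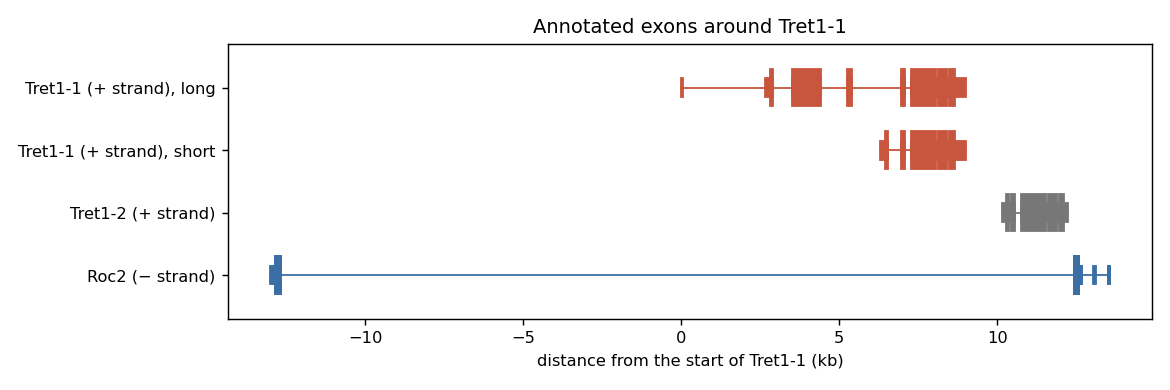
Annotated exons of Tret1-1 (long and short transcript), Tret1-2 and Roc2, by distance in kb from the start of Tret1-1; tall boxes are coding and low boxes untranslated. Tret1-1 and Tret1-2 both lie in a single intron of Roc2, and the short Tret1-1 transcript starts 6288 nt after the long one.

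After TMM scaling, the Tret1-1 transcript was 7.96 times as abundant in KRB as in Schneider's medium. In Schneider's medium, 614 reads were counted on it in replicate 1 and 1126 in replicate 2. In KRB, replicate 1 held 3919 reads and replicate 2 held 5890. Both KRB libraries lay far above both Schneider's libraries, although the raw reads also follow the number of reads in each library, which ranged from 1108029 to 2801713 on the listed genes. With TMM, a method of edgeR that sets the libraries to a common size, the normalised counts were 749.8 and 669.7 in Schneider's medium and 5302 and 5994 in KRB. Replicates of 1 medium differed by a factor of 1.12 and 1.13, whereas every pairing of a KRB with a Schneider's library differed by a factor of 7.07 to 8.95. The means were 709.7 ± 56.6 (SD, n = 2) and 5648 ± 489 (SD, n = 2), a ratio of 7.96. Fitted over all genes, the log2 fold change was 2.99 (standard error, SE, 0.17).

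The counts were deep enough for the reads themselves to add little to this spread. Counting alone would give a coefficient of variation of 1.30% to 4.04% in a library, and the replicates varied by 7.98% in Schneider's medium and by 8.66% in KRB. As a share of all reads on listed genes, Tret1-1 took 554 and 466 of every 1000000 reads in Schneider's medium and 2002 and 2102 in KRB. The 95% Wilson intervals of these shares ran from 439.9 to 599.7 in Schneider's medium and from 1940 to 2157 in KRB. Such intervals cover counting error only, because amplified reads are not independent molecules. These unscaled shares differed by a factor of 4.02 between the media.

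**Figure D2:**
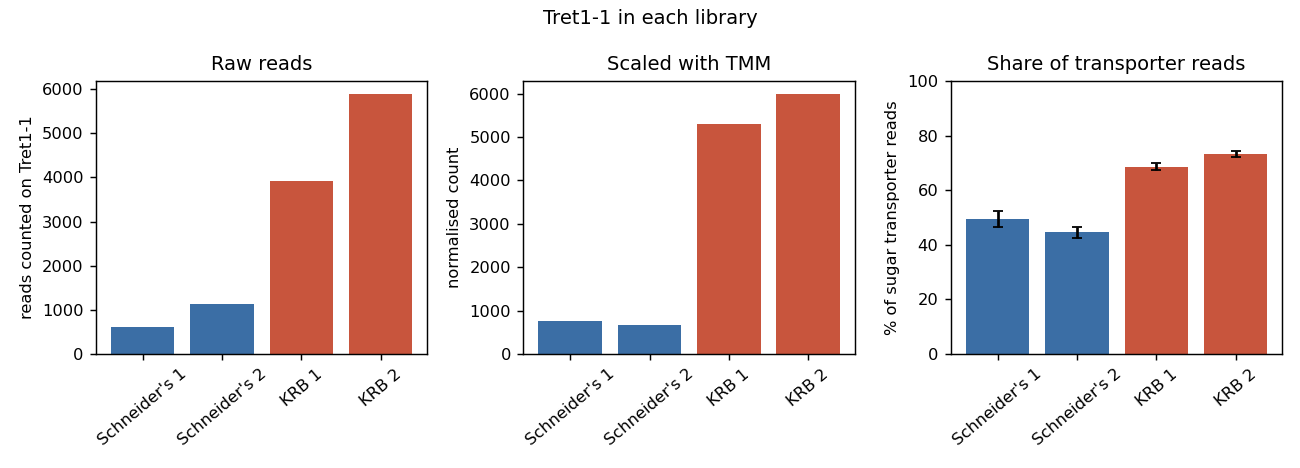
Tret1-1 in each library (blue, Schneider's medium; red, KRB) as raw reads, as normalised counts after TMM scaling, and as a percentage of the reads on all 9 listed sugar transporter genes, with 95% Wilson intervals. Normalised counts were 749.8 and 669.7 in Schneider's medium and 5302 and 5994 in KRB.

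The size of the difference depended on how the libraries were scaled, and its direction did not. The log2 fold change was 2.01 with total counts, 3.45 with upper-quartile factors and 3.73 with both relative log expression factors and DESeq2. These settings moved all genes alike, by a median of -0.97, 0.46, 0.74 and 0.74 log2 in this order. Tret1-1 therefore stayed 3.91 log2 above the median of the tested genes in each of the 4, against 3.92 with TMM. That constancy follows from the common shift and is no separate check. With single libraries left out, the distance ran from 3.61 without Schneider's replicate 2 to 3.98 without Schneider's replicate 1. The table holds genes that had been selected for their change, as no tested gene had an absolute log2 fold change under 0.84, so the level of unchanged RNAs, against which a scaling would be checked, is not seen here. In bulk RNA a change in the RNA of each cell and a change in the number of cells that carry it cannot be told apart, and the libraries hold no measure of RNA per cell. The paper reports a general fall of RNA levels in KRB, which counts relative to the other reads of a library do not show.

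**Figure D3:**
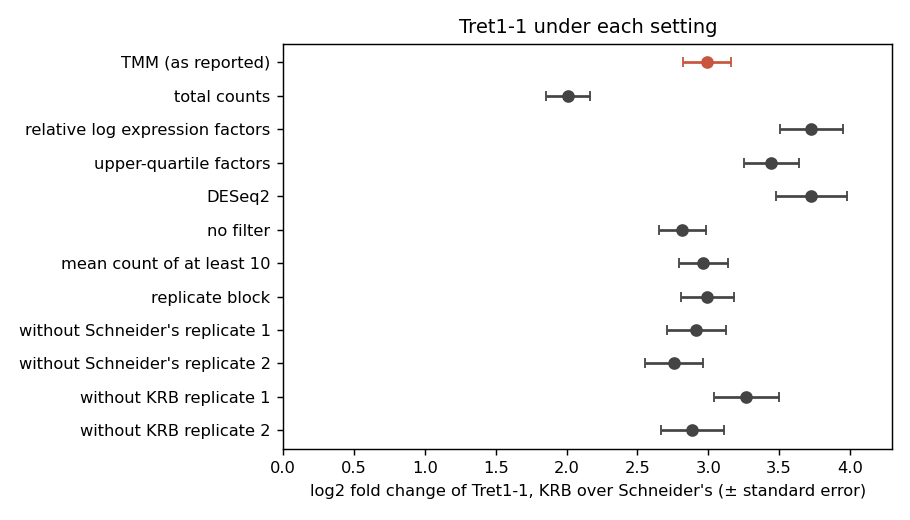
Log2 fold change of Tret1-1 in KRB over Schneider's medium (horizontal axis) under each scaling, filter and test and with each library left out; bars are standard errors. All values lie between 2.01 with total counts and 3.73 with relative log expression factors or DESeq2.

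Ratios within a library do not depend on its scaling. Tret1-1 held 49.4% and 44.5% of the reads on the 9 listed sugar transporter genes in Schneider's medium and 68.6% and 73.2% in KRB. The 95% Wilson intervals were 46.7% to 52.2% and 42.6% to 46.5% in Schneider's medium and 67.4% to 69.8% and 72.3% to 74.2% in KRB. Tret1-1 thus took a larger part of these reads in both KRB libraries than in either Schneider's library. For each read of Hex-A, the hexokinase gene, a comparison chosen after the values were seen, there were 0.331 and 0.257 reads of Tret1-1 in Schneider's medium and 0.532 and 0.767 in KRB. The ratio to Hex-A was thus higher in both KRB libraries, by a factor of 2.21 between the means, although Hex-A was itself higher in KRB.

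Few genes with this many reads stood as high. Of the 1756 genes that passed the low-count filter, Tret1-1 had the 124th largest log2 fold change, but 101 of the 123 genes above it had a mean count under 100. This rank was 254th of 2049 genes without the low-count filter. It was 196th of 1862 without Schneider's replicate 1, 160th of 1776 without Schneider's replicate 2 and 132nd of 1828 without KRB replicate 1. Tret1-1 ranked first of the 109 tested genes with a mean count at least as large as its own. That cutoff rests on its own reads, most of them from KRB. CG8177 came next with 2.86 (SE 0.38), a gap smaller than that standard error. This first rank was not followed with libraries left out. Among the 272 tested genes averaging 1000 or more reads per library, Tret1-1 ranked 3rd, behind CG7142 with a log2 fold change of 7.22 (SE 0.26) and Rcd2 with 3.32 (SE 0.28). Another 364 tested genes had a Schneider's level within 2-fold of that of Tret1-1, and their log2 fold changes ran from -5.66 to 2.86 with a median of -0.96, so none of them exceeded it. Its mean normalised count was the 308th largest of the 2049 listed genes in Schneider's medium and the 92nd in KRB.

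**Figure D4:**
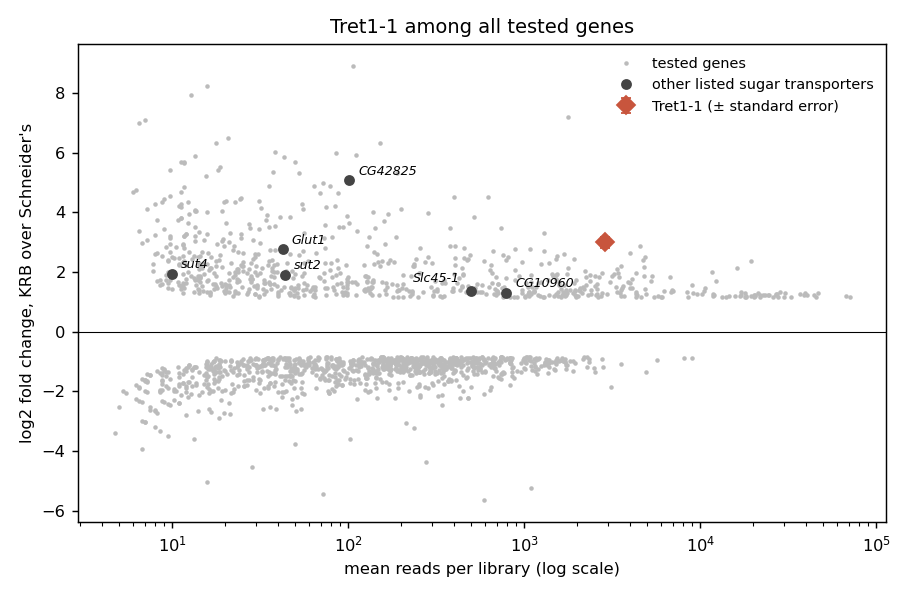
Log2 fold change in KRB over Schneider's medium against the mean reads per library (log scale) for the 1756 tested genes (grey), the other tested sugar transporters (black) and Tret1-1 (red, bar for the standard error). Tret1-1, at 2.99, is the highest of the 109 genes with a mean count at least as large as its own, and CG8177, at 2.86 (SE 0.38), is next.

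After TMM scaling, all 9 listed sugar transporter genes had more normalised counts in both KRB libraries than in either Schneider's library. The order was not followed under other scalings, and CG3285 and CG4607, among the 9, were too low to be tested. Of the 1756 tested genes, 746 had this order as well and 992 had the reverse. The list held 29 genes for transporters of sugars by annotation or similarity, and the other 20 are not analysed here. Of the 8 beside Tret1-1, 6 passed the low-count filter, and all 6 rose at an adjusted p below 0.05 in the edgeR quasi-likelihood test (Benjamini-Hochberg over all tested genes), with a median log2 fold change of 1.93. For comparison, 742 (42.3%) of all 1756 tested genes were higher and 942 (53.6%) lower, with a median of -0.92 (530 lower without KRB replicate 1). The listed genes were selected by the authors from these libraries, so the calls do not count as independent evidence. The split moved with the scaling, to 335 higher and 1004 lower genes with total counts, 748 and 547 with upper-quartile factors, 734 and 89 with DESeq2 and 749 and 178 with relative log expression factors. The paper reports more genes up than down in KRB, out of all the genes it detected. With total counts, sut4, CG10960 and Slc45-1 lost their calls, and 3 of these 6 transporters remained called.

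Per kb of exon, Tret1-1 was the most abundant of the listed transporters in both media. On the scale of CPM (TMM-scaled counts per 1000000 reads on tested genes) per kb of exon, its mean level was 107.5 in Schneider's medium and 855.6 in KRB. CG10960, also known as nebulosa, came next with 69.8 and 173, and Slc45-1, a sucrose transporter, followed with 45.6 and 116.9. In normalised counts, CG10960 had 421 and 504 in Schneider's medium and 1176 and 1117 in KRB, which gave a log2 fold change of 1.31 (SE 0.16). Slc45-1 had 309 and 282 in Schneider's medium and 885 and 631 in KRB, which gave 1.36 (SE 0.21). These 2 genes, the only other listed transporters with at least 253 reads in every library, thus rose, but by less than Tret1-1 differed.

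CG42825 had the largest log2 fold change of the tested transporters, 5.08 (SE 0.33), with 6 and 10 Schneider's reads and 140 and 250 KRB reads. Its level of 64.8 CPM per kb in KRB was still far below that of Tret1-1. Glut1, a homologue of the mammalian glucose transporter GLUT1, rose from 8 and 22 reads to 51 and 89, a log2 fold change of 2.76 (SE 0.36). The sugar transporter genes sut2 and sut4 rose as well, sut2 from 13 and 37 reads to 57 and 68, with a log2 fold change of 1.91 (SE 0.33). For sut4, the raw counts were 2 and 9 in Schneider's medium and 13 and 16 in KRB, with 1.95 (SE 0.45), and without KRB replicate 2 the call was lost (2.01, adjusted p = 0.0568 in the same edgeR test), while without Schneider's replicate 2 its value was 2.57. CG4607, counted 1 and 3 times in Schneider's medium and 8 and 8 times in KRB, and CG3285, with 0 and 0 against 2 and 4, were too low to be tested. CG3285 shares 3.86% of its exon length with CG15408 on the same strand, so some of its few reads could belong there.

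**Figure D5:**
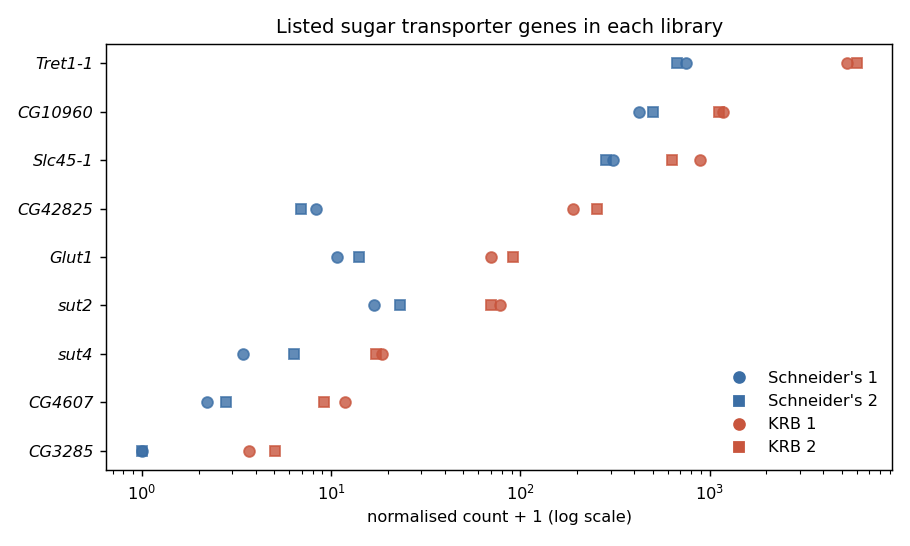
Normalised count plus 1 (log scale) of each listed sugar transporter gene in each library (blue, Schneider's medium; red, KRB; circles, replicate 1; squares, replicate 2). With TMM scaling, in all 9 genes both KRB libraries lie to the right of both Schneider's libraries, and Tret1-1 is at the top in both media. Of the 1756 tested genes, 746 had this order and 992 the reverse.

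Little can be said of the genes that make or split trehalose. Of the 5 in the list, which included trehalase (Treh) and trehalose-6-phosphate synthase (Tps1), the 1 analysed here was CG5171, a predicted trehalose phosphatase. Its reads numbered 2 and 3 in Schneider's medium and 5 and 16 in KRB, too few for the test. Of the α-glucosidase genes, whose products release glucose from maltose and similar sugars, 3 of 11 were listed and 1 was tested. This gene, Mal-B2, had normalised counts of 199 and 412 in Schneider's medium and 161 and 158 in KRB. Over all tested genes the median log2 fold change was -0.92, and 53.6% were lower. Mal-B2 fell by 0.95 on the log2 scale (SE 0.35), close to that median. Its call was lost without Schneider's replicate 2 (log2 fold change -0.48), without KRB replicate 1 (-0.76) or without KRB replicate 2 (-0.94), and with upper-quartile factors (-0.48), DESeq2 (-0.18) or relative log expression factors (-0.18). Mal-A1 was counted 2 and 2 times in Schneider's medium and 11 and 8 times in KRB, and Mal-A5 had 4 and 4 against 25 and 7.

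Of 29 genes of glycolysis, glycogen and gluconeogenesis, 5 were listed, and 2 rose, 2 fell and 1 did not pass the test. Among all tested genes, 42.3% were higher and 53.6% lower. Both listed genes that rose encode enzymes of glycolysis. Hex-A went from 2266 and 2606 normalised counts to 9974 and 7818, a log2 fold change of 1.87 (SE 0.19), and Ald, the aldolase gene, from 3659 and 3500 to 8374 and 10095, with 1.37 (SE 0.17). The genes that fell were Pepck, for the key enzyme of gluconeogenesis, and Pdp, for the phosphatase that activates pyruvate dehydrogenase. Pepck went from 717 and 649 normalised counts to 165 and 130, a log2 fold change of -2.21 (SE 0.20), and Tret1-1, with a similar normalised count in Schneider's medium, differed in the opposite direction. Pdp fell by 0.94 (SE 0.17), close to the median of -0.92 over all tested genes. It lost its call with DESeq2 (-0.20) and with relative log expression factors (-0.20). CG10924, a second gene of the Pepck family, was counted 41 and 19 times in Schneider's medium and 7 and 6 times in KRB, with a log2 value of -1.89 (SE 0.82) and an adjusted p of 0.0618 in the edgeR test. Its value was -0.72 without Schneider's replicate 1, and it passed the test without Schneider's replicate 2 (-2.85), with total counts (-2.88) and with the replicate number as a block (-1.77).

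Among 26 genes of sugar sensing, insulin signalling and growth control, 2 were listed. Of all tested genes, 42.3% were higher and 53.6% lower, with a median log2 fold change of -0.92. Thor, the 4E-BP that restrains translation and is a known target of FOXO, rose by a log2 fold change of 1.57 (SE 0.60) on few reads, with raw counts of 7 and 36 in Schneider's medium and 51 and 27 in KRB. Without Schneider's replicate 1 (0.98) or KRB replicate 1 (0.99), Thor was no longer called, nor with total counts (0.63) or without the low-count filter (1.38), and its value was 2.29 without Schneider's replicate 2. Ilp6, an insulin-like peptide, fell from 1655 and 1912 normalised counts to 832 and 953, a log2 fold change of -0.999 (SE 0.16), and lost its call without KRB replicate 1 (-0.71), with DESeq2 (-0.25) and with relative log expression factors (-0.25). Of 18 genes of the TGF-β pathway, 2 were listed and both rose, where 42.3% of all tested genes were higher. The ligand gene dpp, counted 5 and 23 times in Schneider's medium and 37 and 89 times in KRB, rose by a log2 value of 2.73 (SE 0.50), which was 3.35 without Schneider's replicate 2. The transcriptional repressor brk, whose own expression Dpp signalling represses, had 705 and 620 normalised counts in Schneider's medium and 1606 and 1606 in KRB, with 1.28 (SE 0.15), and it lost its call with total counts (0.30).

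The hemocyte genes in the table were present in every library and were lower in KRB, as were 53.6% of all tested genes. Of 11 hemocyte markers, 3 were listed, eater and Sr-CI, which encode phagocytic receptors, and Ppn, which encodes the matrix protein papilin, with 134 to 1375 reads per library. All 3 fell, by 1.38, 1.38 and 1.37 on the log2 scale with standard errors of 0.33, 0.53 and 0.30, against a median of -0.92 over all tested genes. Without KRB replicate 2 all 3 lost their calls (-1.02, -1.03 and -1.16), and Sr-CI also lost its call without Schneider's replicate 1 (-0.59) or KRB replicate 1 (-1.67), with upper-quartile factors (-0.95) and with a minimum mean count of 10 (-1.42). Without Schneider's replicate 2, Sr-CI was at -2.12. With DESeq2 or relative log expression factors none of the 3 was called (-0.69 to -0.66). The 8 markers of glia, neurons and muscle in the list are not analysed here. The part of these markers in the Tret1-1 difference was not tested.

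The genes whose values over the 4 libraries were most like those of Tret1-1 were Galphaf, CG3036, CG18446, Adgf-A2 and l(1)G0469. Likeness was the Euclidean distance between the log2 values of CPM plus 0.5, centred for each gene, over the 936 other genes averaging 100 or more reads per library, and these 5 lay at 0.22 to 0.46 log2. With only 4 libraries, such closeness means a similar difference between the media and similar deviations of the replicates, and no more. Galphaf, for the α subunit of a G protein, had 33.0 and 25.6 normalised counts in Schneider's medium and 230.0 and 292 in KRB, which gave a log2 fold change of 3.18 (SE 0.27). CG3036, a predicted solute carrier of the same superfamily as Tret1-1, had 115 and 85.0 against 635 and 821, with 2.88 (SE 0.24). The zinc finger gene CG18446 had the most normalised counts of the 5, with 280 and 315 against 1966 and 2140, and 2.79 (SE 0.16). Adgf-A2, of the adenosine deaminase growth factors, and l(1)G0469 had log2 fold changes of 2.61 (SE 0.22) and 2.80 (SE 0.25). All 5 thus had fewer normalised counts than Tret1-1 in every library.

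Within 50 kb on either side of Tret1-1, 20 other genes are annotated, and 1 of them was analysed here. This was pyr, for an FGF ligand, 37481 bp downstream, which had 1028 and 1083 normalised counts in Schneider's medium and 2393 and 2571 in KRB. Its log2 fold change of 1.23 (SE 0.15) was smaller than the difference of Tret1-1.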

How the data were processed

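STAR 2.4.0.1 was used by the authors to map the reads to Dm6, and an in-house script gave the counts per transcript. They deposited raw, unnormalised counts of each library per gene symbol for the listed genes, together with their own log2 fold change and p-value from edgeR 3.24.3, which were not used here. Strand use in the counting is not given in the sources used here. Column sums therefore cover the listed genes, and the full depth of each library is unknown.

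The whole table was fitted in R 4.3.3 with edgeR 4.0.16: filterByExpr at its defaults (1756 of 2049 genes kept), TMM scaling, and the two-sided quasi-likelihood test of KRB against Schneider's medium with Benjamini-Hochberg adjustment. The standard error is the log2 fold change divided by the square root of F. Normalised counts are relative to the geometric mean of the effective library sizes. An exact permutation test of 2 against 2 libraries cannot go below p = 0.333, and none was run. DESeq2 1.42.0, other scalings and filters, a replicate block and each library left out in turn were alternatives.

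Tret1-1, the gene lists and the tests were chosen with earlier results of these data known. Genes named were Tret1-1, all listed sugar transporters and trehalose genes, up to 4 called members per direction of the other lists, the 5 genes most like Tret1-1 and listed neighbours within 50 kb; others were chosen after their values were seen. Of the symbols, 2036 matched the BDGP6 annotation, release 115. The scripts were tested on simulated data in which only a part of the genes changed, in both directions. Those data do not mimic a table of genes selected for change, so the scaling was not tested by them. Figures were drawn with matplotlib 3.10.9 and summaries made with scipy 1.17.1, numpy 2.4.6 and pandas 2.3.3 under Python 3.11.15. No sequence was used.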

Additional observations from a re-analysis of the deposited data

How the results depend on the processing

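Tret1-1 was higher in KRB under each alternative. Its log2 fold change of 2.99 became 2.01 with total counts, 3.45 with upper-quartile factors, 3.73 with relative log expression factors or DESeq2 and 2.82 without the low-count filter, each a move beyond the spread between replicates, and it ran from 2.76 to 3.27 when single libraries were left out. The scaling factors come from selected genes alone. The choice between them was not checked, and the authors' own log2 fold changes were not used for it. With total counts, 335 genes in all, 3 sugar transporters beside Tret1-1, 1 TGF-β gene and 0 genes of sugar sensing were called higher. Lower genes numbered 178 with relative log expression factors, 547 with upper-quartile factors and 89 with DESeq2, and lower glycolysis genes numbered 1 under the first and 1 under the last of these settings. Lower sugar sensing genes numbered 0 under those 2 settings, and lower α-glucosidases 0 under all 3. Without the filter, 1 trehalose gene, 2 α-glucosidases and 0 sugar sensing genes were higher, and a mean count of at least 10 gave 1 higher α-glucosidase. With single libraries left out, all tested genes gave 650 to 781 higher and 530 to 938 lower, with the fewest lower without KRB replicate 1. Ranges were then 0 to 1 for higher trehalose genes, 0 to 2 for higher and 0 to 1 for lower α-glucosidases, and 0 to 1 for both higher and lower sugar sensing genes. Of the 5 genes most like Tret1-1, 4 remained with a mean count of at least 30, and all 5 with total counts or relative log expression factors. For the other 27 genes named with a fitted value, 90 of 189 values moved beyond the spread between replicates under other settings and 20 of 108 with a library left out, and 0 of 297 changed sign. A replicate block left Tret1-1 at 2.99 (standard error 0.19). The libraries share only a number, and deviations of same-numbered libraries correlated at 0.283.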
